A study of Homo sapiens with 16 samples.

Results

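The 10 genes described here encode 6 secreted ADAMTS proteases (ADAMTS1, ADAMTS2, ADAMTS4, ADAMTS5, ADAMTS6 and ADAMTS12), 1 ADAMTS-like protein that has no protease domain (ADAMTSL1) and 3 membrane-anchored ADAM proteases (ADAM12, ADAM17 and ADAM19). They were taken by gene symbol from 62069 gene identifiers, of which 39007 had a symbol. All 10 were among the 13526 genes with enough counts to be tested. RNA was sequenced from 16 libraries of IMR90 ER:RAS, human lung fibroblasts with a RAS oncoprotein that 4-hydroxytamoxifen (4OHT) turns on, sampled on day 6 at passage 15. The study lowered AHCY, the enzyme that breaks down S-adenosylhomocysteine after methylation reactions, in cells labelled senescent after RAS activation.

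The line was sequenced in 4 groups of 4 libraries. The shAHCY_2 group (replicates 57 to 60) and the shAHCY_4 group (replicates 61 to 64) each carried a different hairpin against AHCY and received 4OHT at 100 nM. The EV_4OHT group (replicates 53 to 56) received 4OHT with no AHCY hairpin and is labelled senescent. The EV group (replicates 49 to 52) is labelled non-senescent, and its group label names no 4OHT. No group with a non-targeting hairpin is among the samples used here. Whether the 4 libraries within a group derive from independent cultures is not given in the labels. The p-values below therefore describe spread among libraries only, and that spread could be technical.

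ADAMTS proteases are secreted enzymes that cut components of the extracellular matrix such as aggrecan, versican and procollagens, and ADAM proteases sit in the membrane and release the outer parts of growth factors, cytokine receptors and adhesion molecules. Both kinds are made with an inhibitory propeptide that furin-like convertases remove, and TIMP3 inhibits several of them. In fibroblasts they take part in matrix turnover, and shedding by ADAM proteases feeds growth factors into the secretory phenotype of senescent cells.

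Depth was 8236199 to 18235787 counts per library, and 11903 to 13530 genes had at least 10 counts. No replicate pair was identical, and counts of the 24 pairs within groups differed beyond sampling noise. In shAHCY_2, replicate 59 stood apart, with a chi-square per degree of freedom of 25.5 to 30.8 in its pairs and 3.15 to 4.50 in the other pairs, and a Spearman correlation, across genes, of -0.535 between gene GC content and its log2 CPM relative to the mean of all 16 libraries. In EV, pairs with replicate 51 gave 10.4 to 35.9, against 10.9 to 11.9 in the other pairs. The lowest of all was its pair with replicate 50, so replicate 51 did not stand apart from every other library. The GC correlation of replicate 51 was -0.266. In shAHCY_4 it was -0.118, 0.281, 0.227 and 0.1 for replicates 61, 62, 63 and 64, so replicates 51 and 59 were not the only libraries with a GC trend. Without EV replicate 51, the 7 members called in EV_4OHT against EV kept their calls. Levels are CPM, counts scaled to library size with TMM factors, given as mean ± SD (n = 4 libraries a group). AHCY was measured at 20.1, 19.0, 12.1 and 22.8 CPM in shAHCY_2 libraries and at 13.4, 14, 18 and 13.5 CPM in shAHCY_4 libraries. It stood at 168, 163, 173 and 154 CPM in EV_4OHT libraries, against 124, 106, 102 and 123 CPM in EV libraries. Every hairpin library lay below every library of the other groups. All 11 fibroblast markers were tested, and their summed level was 8370 to 9670 CPM with shAHCY_2, 9030 to 10200 with shAHCY_4, 8440 to 8980 in EV_4OHT and 14100 to 17300 in EV. These markers did not move together. COL1A1 averaged 1170 CPM in EV_4OHT and 3770 in EV, COL1A2 1000 and 3510, and FN1 3780 and 5170. PDGFRB, THY1, LUM and S100A4 were also lower in EV_4OHT. VIM averaged 2010 CPM in EV_4OHT and 2020 in EV, PDGFRA 96.6 and 96.5, and FAP 105 and 90.7. PECAM1 and CDH5 (endothelial), CD3E (T cell) and SFTPC (alveolar epithelium) were at 0 counts in all 16 libraries. The epithelial list summed to 45.2 to 57.2 CPM with shAHCY_2, 45.1 to 54.8 with shAHCY_4, 49.6 to 59.7 in EV_4OHT and 88.7 to 103 in EV. Within it, KRT19 averaged 1.24 CPM with shAHCY_2, 1.92 with shAHCY_4, 1.44 in EV_4OHT and 50.9 in EV, while KRT18 averaged 46.0 CPM with shAHCY_2, 42.8 with shAHCY_4, 44.7 in EV_4OHT and 34.1 in EV. The endothelial sum was at most 2 CPM and the leukocyte sum at most 1.34 CPM in any library. The part of these shifts in the results below was not tested.

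Between EV_4OHT and EV, 7 of the 10 genes passed the test, in both directions. ADAM19, ADAMTS4, ADAM12, ADAMTS12 and ADAMTS1 rose in EV_4OHT relative to EV, and ADAMTSL1 and ADAMTS2 fell. ADAMTS5, ADAMTS6 and ADAM17 did not pass the test. The 5 higher genes of 10 stand beside 26.7% of all tested genes called higher, and the 2 lower genes beside 26.8% called lower. These genes and the lists below were chosen with earlier results of these data known. Such counts, here and below, are therefore descriptions and no test of a group of genes. A call is an adjusted p under 0.05 in edgeR's quasi-likelihood test, and each log2 fold change is given with its standard error. In cultures such as these, fewer cells that express a gene and less RNA per cell cannot be told apart.

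**Figure D1:**
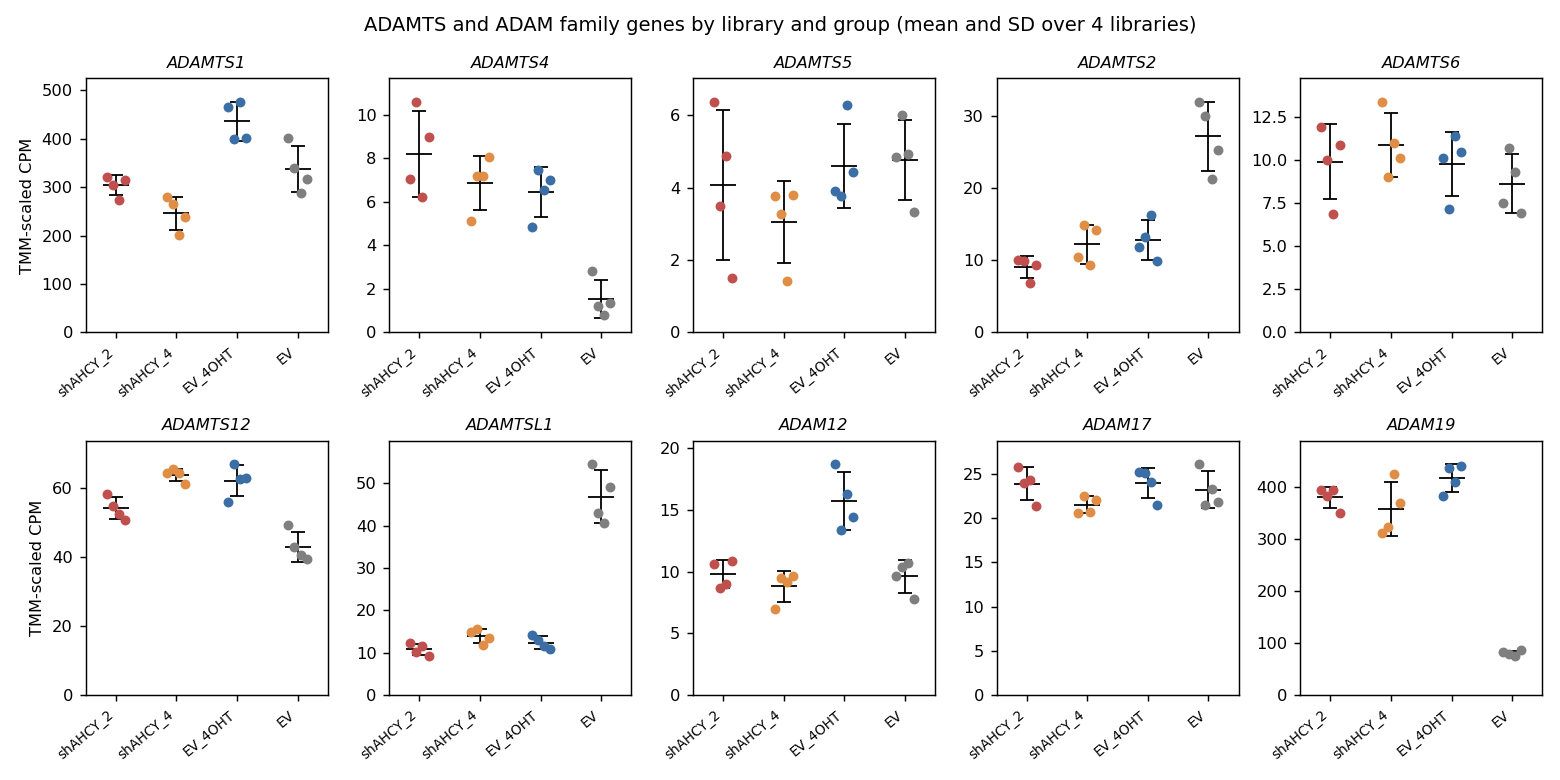
TMM-scaled CPM of the 10 genes in each library (points) with the mean and SD of 4 libraries (bars), by group, each panel on its own linear axis from 0. ADAM19 lies at 312 to 440 CPM in all 12 libraries that received 4OHT and at 75.6 to 86.2 CPM in EV. ADAM12 is above every other library in the 4 EV_4OHT libraries.

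The aggrecan-cleaving group held the member with most counts and both of the members with fewest. ADAMTS1, a protease of aggrecan and versican, was measured at 466, 400, 477 and 402 CPM in EV_4OHT libraries, against 401, 340, 289 and 317 CPM in EV libraries. The groups overlapped, since EV replicate 49 lay above EV_4OHT replicate 54. The difference was 0.37 ± 0.10 on the log2 scale (adjusted p = 0.0042). ADAMTS4, a further aggrecanase, stood at 4.82, 7.46, 6.56 and 6.99 CPM in EV_4OHT libraries, against 2.80, 1.23, 0.793 and 1.35 CPM in EV libraries. The groups were separate, on 58 to 98 counts per EV_4OHT library and 15 to 45 counts per EV library. ADAMTS4 rose by 2.07 ± 0.28 (adjusted p = 1.3e-06), a 4.21-fold difference. ADAMTS5, the aggrecanase best known from mouse arthritis models, averaged 4.60 ± 1.16 CPM in EV_4OHT and 4.77 ± 1.11 CPM in EV. Its log2 difference of -0.04 ± 0.31 had a 95% interval of -0.66 to 0.57, so a smaller change was not detectable at 47 to 94 counts per EV_4OHT library.

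ADAMTS2, which removes the N-terminal propeptide of fibrillar procollagens, was measured at 11.8, 13.2, 16.3 and 9.85 CPM in EV_4OHT libraries, against 32.0, 30.0, 21.3 and 25.3 CPM in EV libraries. Every EV_4OHT library lay below every EV library. ADAMTS2 fell by 1.08 ± 0.17 on the log2 scale (adjusted p = 1.3e-05). Genes of its substrates fell as well. COL1A1 averaged 1170 ± 54.1 CPM in EV_4OHT and 3770 ± 379 CPM in EV, and COL3A1 averaged 140 ± 9.03 CPM in EV_4OHT and 467 ± 35.3 CPM in EV.

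ADAMTS12, which cleaves cartilage oligomeric matrix protein, was measured at 55.9, 66.8, 62.4 and 62.7 CPM in EV_4OHT libraries, against 49.2, 43.0, 40.5 and 39.5 CPM in EV libraries. The groups did not overlap, and the difference was 0.53 ± 0.08 (adjusted p = 1.6e-05). ADAMTS6, a protease linked to fibrillin microfibrils, averaged 9.78 ± 1.84 CPM in EV_4OHT and 8.63 ± 1.72 CPM in EV, a log2 difference of 0.18 ± 0.18 with a 95% interval of -0.17 to 0.54. ADAMTSL1, the matrix protein without a protease domain, stood at 14.1, 13.0, 11.6 and 10.8 CPM in EV_4OHT libraries, against 54.5, 43.1, 40.6 and 49.1 CPM in EV libraries. It was the member with the deepest drop, 1.92 ± 0.13 lower in EV_4OHT on the log2 scale (adjusted p = 1.5e-11), which left 26.4% of the EV mean.

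Among the ADAM proteases, ADAM19 stood apart. ADAM19, which processes neuregulins in mouse, was measured at 383, 436, 409 and 440 CPM in EV_4OHT libraries, against 82.9, 79.8, 75.6 and 86.2 CPM in EV libraries. The lowest EV_4OHT library was more than 4 times the highest EV library. ADAM19 rose by 2.36 ± 0.09 (adjusted p = 1e-15), a 5.14-fold difference and the largest rise of the 10 genes. ADAM12, which releases HB-EGF and cuts insulin-like growth factor binding proteins, was at 18.7, 13.4, 16.3 and 14.4 CPM in EV_4OHT libraries, against 9.64, 10.4, 10.7 and 7.75 CPM in EV libraries. The groups did not overlap, and ADAM12 rose by 0.70 ± 0.14 (adjusted p = 0.00024). ADAM17, the sheddase of TNF and of several EGF receptor ligands, averaged 24 ± 1.72 CPM in EV_4OHT and 23.2 ± 2.08 CPM in EV. Its log2 difference of 0.05 ± 0.10 had a 95% interval of -0.14 to 0.24, the narrowest of the 3 uncalled genes.

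**Figure D2:**
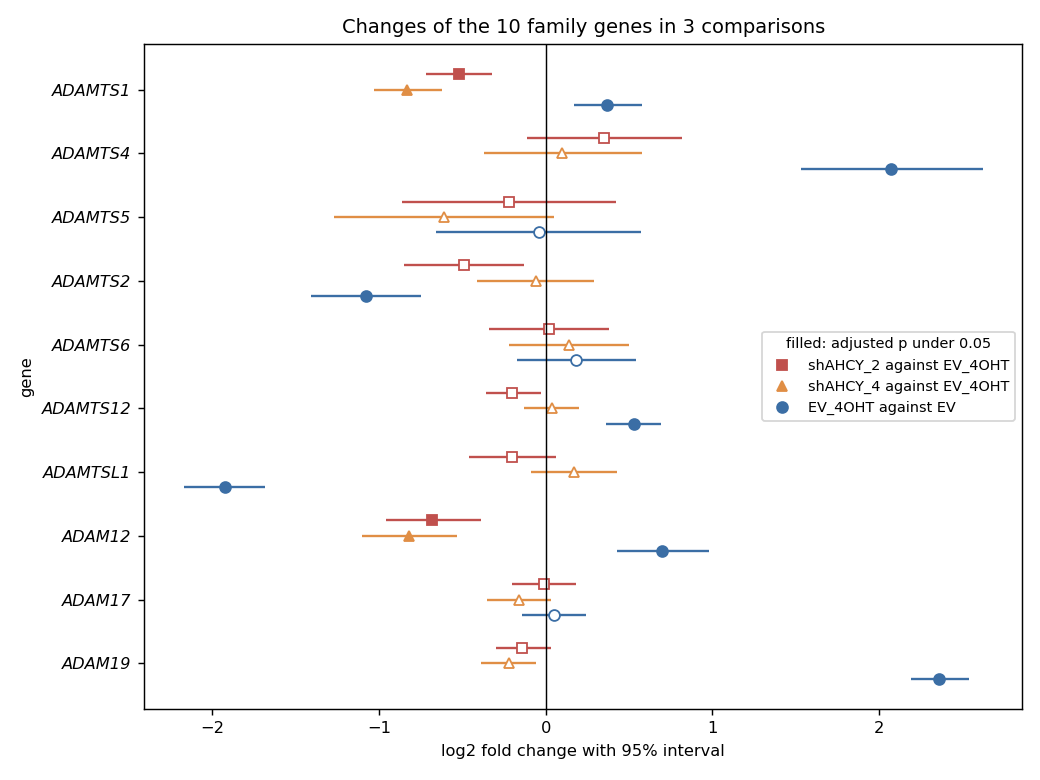
Log2 fold change (horizontal axis) of each gene with its 95% interval in shAHCY_2 against EV_4OHT, shAHCY_4 against EV_4OHT and EV_4OHT against EV. Filled symbols mark adjusted p under 0.05. ADAMTS1 and ADAM12 are filled on the negative side for both hairpins (-0.52 and -0.83, and -0.68 and -0.82) and on the positive side for EV_4OHT against EV.

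Reads of overlapping genes may limit 2 of these values. An exon of ADAM19 overlaps CYFIP2 on the opposite strand in the GENCODE 29 annotation, and an exon of ADAM17 overlaps IAH1. The libraries do not mark strand. CYFIP2 held 3693 counts over the 16 libraries against 63940 for ADAM19, and its EV_4OHT level of 15.6 ± 1.81 CPM differed from the EV level of 15.0 ± 1.77 CPM by 0.06 ± 0.13 on the log2 scale (adjusted p = 0.73). IAH1 held 13978 counts against 5030 for ADAM17. Whether reads of the shared stretch were counted for either gene or left out is not known, as the counting options are not given. In the comparisons with EV, CYFIP2 was higher in shAHCY_2 by 0.38 ± 0.13 (adjusted p = 0.019), where ADAM19 was higher as well, and IAH1 was lower in shAHCY_4, at a log2 difference of -0.24 ± 0.09 (adjusted p = 0.03), where ADAM17 did not pass. Their part in the ADAM19 and ADAM17 values was not tested.

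With each hairpin, 2 of the 10 genes fell relative to EV_4OHT, ADAMTS1 and ADAM12. The 2 lower genes stand beside 3.07% of all tested genes called lower with shAHCY_2 and 6.86% with shAHCY_4. By edgeR, 0 members were called higher with either hairpin, against 3.91% of all tested genes with shAHCY_2 and 7.58% with shAHCY_4. At an unadjusted p under 0.05 the count of higher members was also 0 for each hairpin, and DESeq2 and limma-voom called 0. Both hairpin comparisons and the comparison of EV_4OHT with EV share the EV_4OHT libraries, so the values are set side by side and no overlap is drawn from them.

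ADAMTS1 was measured at 322, 305, 274 and 314 CPM in shAHCY_2 libraries and at 279, 266, 201 and 238 CPM in shAHCY_4 libraries, against 466, 400, 477 and 402 CPM in EV_4OHT libraries. No hairpin library reached the lowest EV_4OHT library. ADAMTS1 fell by 0.52 ± 0.10 with shAHCY_2 (adjusted p = 0.0025), to 69.6% of the EV_4OHT mean. It fell by 0.83 ± 0.10 with shAHCY_4 (adjusted p = 7.9e-06), to 56.4%. Without shAHCY_2 replicate 59 the shAHCY_2 difference was -0.48 and still passed. Relative to EV, the other control, ADAMTS1 averaged 304 ± 20.9 CPM with shAHCY_2 and 337 ± 47.8 CPM in EV, a log2 difference of -0.15 ± 0.10 that did not pass the test (adjusted p = 0.25). With shAHCY_4 it averaged 246 ± 34.7 CPM, was lower than in EV by a log2 difference of -0.45 ± 0.10 (adjusted p = 0.0009), and every shAHCY_4 library lay below every EV library.

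ADAM12 was measured at 10.6, 8.65, 9.03 and 10.9 CPM in shAHCY_2 libraries and at 6.94, 9.48, 9.17 and 9.67 CPM in shAHCY_4 libraries, against 18.7, 13.4, 16.3 and 14.4 CPM in EV_4OHT libraries. Again no hairpin library reached the lowest EV_4OHT library. ADAM12 fell by 0.68 ± 0.14 with shAHCY_2 (adjusted p = 0.0047) and by 0.82 ± 0.15 with shAHCY_4 (adjusted p = 0.00049). Without shAHCY_2 replicate 59 the shAHCY_2 difference was -0.64 and still passed. Set against EV at 9.63 ± 1.33 CPM, the shAHCY_2 mean of 9.81 ± 1.14 CPM differed by 0.03 ± 0.15 on the log2 scale (95% interval -0.26 to 0.32). The shAHCY_4 mean of 8.82 ± 1.27 CPM differed from EV by -0.11 ± 0.15 (95% interval -0.40 to 0.18).

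ADAM19 and ADAMTS4, the genes with the largest rises in EV_4OHT over EV, did not pass the test with either hairpin. ADAM19 stood at 393, 382, 394 and 350 CPM in shAHCY_2 libraries and at 312, 323, 425 and 368 CPM in shAHCY_4 libraries, against 383 to 440 CPM in EV_4OHT. Both hairpin groups overlapped EV_4OHT. The log2 difference was -0.14 ± 0.08 with shAHCY_2 (adjusted p = 0.37) and -0.22 ± 0.09 with shAHCY_4 (adjusted p = 0.084). The shAHCY_4 value passed when only the groups compared were fitted (adjusted p = 0.018), without shAHCY_2 replicate 59 (adjusted p = 0.049) and without shAHCY_4 replicate 63 (-0.32, adjusted p = 0.012). ADAMTS4 was at 7.03, 10.6, 6.23 and 8.95 CPM in shAHCY_2 libraries and at 5.11, 7.17, 7.18 and 8.04 CPM in shAHCY_4 libraries, against 4.82 to 7.46 CPM in EV_4OHT. Its log2 differences were 0.35 ± 0.24 with shAHCY_2 (95% interval -0.11 to 0.82) and 0.10 ± 0.24 with shAHCY_4 (95% interval -0.37 to 0.58).

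ADAMTSL1 and ADAMTS2, the genes that were lower in EV_4OHT than in EV, did not pass either. ADAMTSL1 averaged 10.8 ± 1.37 CPM with shAHCY_2 and 14 ± 1.67 CPM with shAHCY_4, against 12.4 ± 1.5 CPM in EV_4OHT. The log2 difference was -0.20 ± 0.13 with shAHCY_2 and 0.17 ± 0.13 with shAHCY_4, and neither passed the test. ADAMTS2 was at 10.1, 9.94, 6.85 and 9.36 CPM in shAHCY_2 libraries and at 10.4, 14.9, 9.40 and 14.2 CPM in shAHCY_4 libraries, against 9.85 to 16.3 CPM in EV_4OHT. The shAHCY_2 difference of -0.49 ± 0.18 did not pass (adjusted p = 0.11), except with no low-count filter (adjusted p = 0.037). The shAHCY_4 difference was -0.06 ± 0.18 (95% interval -0.41 to 0.29).

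The remaining 4 genes did not pass in either hairpin comparison. ADAMTS12 averaged 54.1 ± 3.25 CPM with shAHCY_2 and 63.7 ± 1.78 CPM with shAHCY_4, against 62 ± 4.50 CPM in EV_4OHT. ADAM17 averaged 23.9 ± 1.84 CPM with shAHCY_2 and 21.5 ± 0.959 CPM with shAHCY_4, against 24 ± 1.72 CPM in EV_4OHT, and its log2 interval was -0.20 to 0.18 with shAHCY_2 and -0.35 to 0.03 with shAHCY_4. ADAMTS6 averaged 9.91 ± 2.19 CPM with shAHCY_2 and 10.9 ± 1.86 CPM with shAHCY_4, against 9.78 ± 1.84 CPM in EV_4OHT. ADAMTS5 varied most between libraries, at 6.38, 3.5, 4.88 and 1.5 CPM with shAHCY_2 and at 3.78, 3.27, 1.41 and 3.79 CPM with shAHCY_4, on 19 to 69 counts each. Its log2 difference from EV_4OHT was -0.61 ± 0.34 with shAHCY_4, with a 95% interval of -1.27 to 0.05.

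Between the hairpins, 0 of the 10 genes were called higher and 0 lower in shAHCY_2 against shAHCY_4 by edgeR, beside 0.702% and 0.54% of all tested genes. At an unadjusted p under 0.05 in edgeR, 1 gene was higher with shAHCY_2 (ADAMTS1, 0.30 ± 0.10, adjusted p = 0.13) and 3 were lower (ADAMTS12, ADAMTSL1 and ADAMTS2). The shares above are at adjusted p and cannot be set beside these unadjusted counts, which show no excess. DESeq2 and limma-voom called 0 in each direction. ADAMTS12 was at 50.7 to 58.3 CPM with shAHCY_2 and 61.2 to 65.3 CPM with shAHCY_4. Its log2 difference of -0.24 ± 0.08 did not pass the test (adjusted p = 0.15). ADAMTS1 passed only with no low-count filter (0.32, adjusted p = 0.016).

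Each hairpin group was also set against EV. ADAMTS4, ADAMTS12 and ADAM19 were called higher with both hairpins, 3 of 10 beside 24.5% of all tested genes for shAHCY_2 and 25.4% for shAHCY_4. ADAM19 stood 2.23 ± 0.09 above EV with shAHCY_2 and 2.14 ± 0.09 above EV with shAHCY_4, ADAMTS4 stood 2.43 ± 0.27 and 2.18 ± 0.28 above, and ADAMTS12 stood 0.33 ± 0.08 and 0.57 ± 0.08 above. With shAHCY_2, 2 genes were lower (ADAMTS2 and ADAMTSL1) beside 23.6% of all tested genes. With shAHCY_4, 3 were lower (ADAMTS1 in addition) beside 25.8%. ADAMTSL1 differed from EV by -2.12 ± 0.13 with shAHCY_2 and by -1.75 ± 0.13 with shAHCY_4, and ADAMTS2 by -1.57 ± 0.18 and -1.14 ± 0.17. These comparisons share the EV libraries with the comparison of EV_4OHT with EV.

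Scaled by length, ADAMTS1 and ADAM19 made up most of the summed level of these 10 genes. ADAM9, a sheddase outside the 10, stood higher than either in every group, at 139 CPM per kb with shAHCY_2, 139 with shAHCY_4, 133 in EV_4OHT and 207 in EV. Per kb of the longest reference transcript, ADAMTS1 stood at 58.5 ± 4.04 CPM per kb with shAHCY_2, 47.4 ± 6.68 with shAHCY_4, 84.0 ± 7.92 in EV_4OHT and 64.9 ± 9.21 in EV. ADAM19 stood at 58.6 ± 3.11 CPM per kb with shAHCY_2, 55.1 ± 7.94 with shAHCY_4, 64.3 ± 4.05 in EV_4OHT and 12.5 ± 0.698 in EV. ADAMTS1 was therefore first in EV_4OHT and in EV with no overlap with ADAM19, while in both hairpin groups the libraries of these genes overlapped. As a share of the summed level of the 10 genes, ADAMTS1 held 43.8% ± 2.25 with shAHCY_2, 39.5% ± 5.82 with shAHCY_4, 50.3% ± 3.37 in EV_4OHT and 65.6% ± 1.61 in EV. ADAM19 held 43.9% ± 2.32 with shAHCY_2, 45.8% ± 6.28 with shAHCY_4, 38.6% ± 3.31 in EV_4OHT and 12.8% ± 1.26 in EV. The summed level was 133 ± 5.31 CPM per kb with shAHCY_2, 120 ± 0.834 with shAHCY_4, 167 ± 5.43 in EV_4OHT and 98.8 ± 11.5 in EV.

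**Figure D3:**
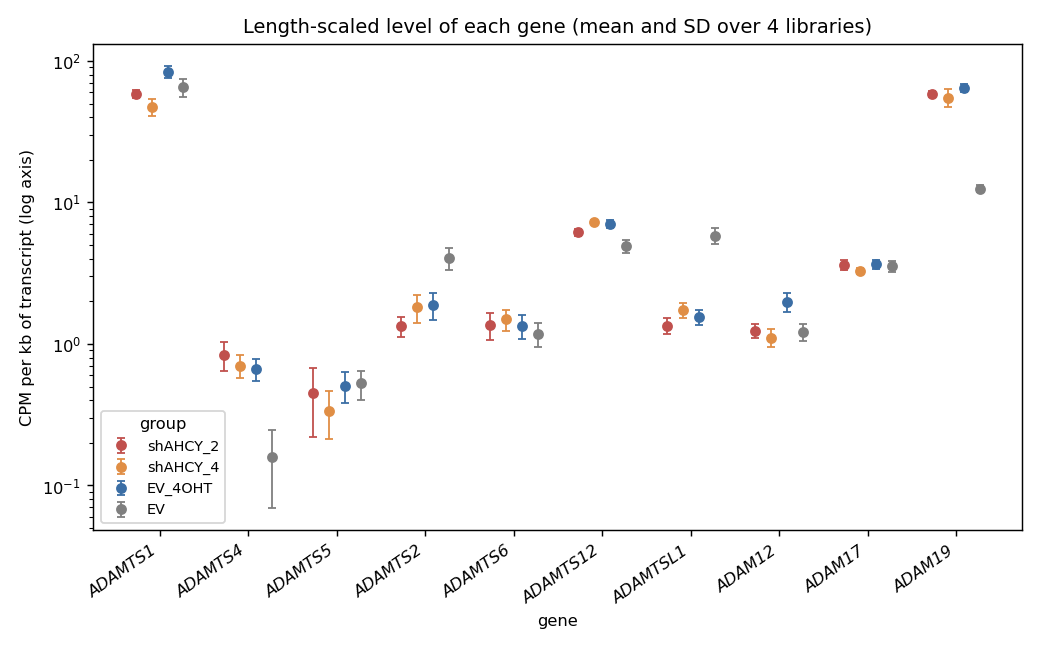
CPM per kb of the longest reference transcript (log axis) of each gene, mean and SD over 4 libraries, by group. ADAMTS1 and ADAM19 sit at 47.4 to 84.0 CPM per kb wherever 4OHT was given, every other gene at 7.26 or lower, and ADAM19 is at 12.5 in EV.

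Below those 2 genes the order in EV_4OHT was ADAMTS12 at 7.06 ± 0.513 CPM per kb, ADAM17 at 3.65 ± 0.262, ADAM12 at 1.98 ± 0.296, ADAMTS2 at 1.89 ± 0.404, ADAMTSL1 at 1.54 ± 0.187, ADAMTS6 at 1.34 ± 0.251, ADAMTS4 at 0.661 ± 0.118 and ADAMTS5 at 0.508 ± 0.128. ADAM12, ADAMTS2, ADAMTSL1 and ADAMTS6 overlapped as neighbours in that order, and so did ADAMTS4 and ADAMTS5. In EV the third place belonged to ADAMTSL1 at 5.83 ± 0.777, overlapping ADAMTS12 at 4.90 ± 0.495, and ADAMTS4 was last at 0.158 ± 0.0891, below ADAMTS5 with no overlap. The longest ADAM17 transcript is not protein-coding. With the longest protein-coding one, an alternative chosen after seeing the data, ADAM17 stood at 5.43 CPM per kb in EV_4OHT and 5.25 in EV, above rather than below ADAMTS2 and ADAMTS12 in EV.

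Across the 16 libraries ADAMTS4 and ADAM19 varied together (Pearson r = 0.928 of log2 CPM), as did ADAMTS2 and ADAMTSL1 (r = 0.902), while ADAMTSL1 and ADAM19 ran opposite (r = -0.971). ADAMTS1 and ADAM12 had r = 0.734, and ADAMTS1 and ADAM19 had r = -0.046. The 16 points fall into the 4 groups, share those group differences and differ in depth, so each r is a description. Of 8530 genes with a mean log2 CPM of at least 3, those most like ADAM19 were SPRED2 (0.995), TIMP1 (0.995) and PRSS3 (0.994). For ADAMTSL1 they were FSTL1 (0.987), CCN1 (0.982) and ARSJ (0.981), and for ADAMTS4 SLC7A6 (0.976), JUNB (0.968) and TIMM22 (0.965). For ADAMTS2 they were TRAM2 (0.954), RAB3B (0.950) and SH3RF1 (0.949), and for ADAMTS12 CIPC (0.940), ATP6V0A1 (0.937) and GPR3 (0.937). ADAMTS1 was nearest to AKR1C1 (0.914), AFAP1L1 (0.907) and HSPB8 (0.900), and ADAM12 to TRIM35 (0.842), SRM (0.834) and PITHD1 (0.826). The 3 genes that did not pass the test in EV_4OHT against EV had lower best values, 0.790 for ADAMTS5 with KIAA0232, 0.791 for ADAMTS6 with KIF16B and 0.699 for ADAM17 with SS18.

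Promoter windows from RefSeq (GRCh38.p14) were found for 7 of the 10 genes, not for ADAMTS1, ADAMTS4 or ADAMTS5. The 250 bases upstream of the annotated start are shown 5′ to 3′ on the gene's own strand for ADAM19 (the largest rise), ADAMTSL1 (the deepest fall) and ADAMTS12 (the 1 window with a match, in capitals).
ADAM19, chr5:157575776-157576025, minus strand: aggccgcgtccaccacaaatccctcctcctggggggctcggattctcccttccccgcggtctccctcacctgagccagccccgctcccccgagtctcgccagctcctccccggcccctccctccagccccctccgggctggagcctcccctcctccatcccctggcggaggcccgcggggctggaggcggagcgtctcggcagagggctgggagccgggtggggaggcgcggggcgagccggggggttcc
ADAMTSL1, chr9:18473903-18474152, plus strand: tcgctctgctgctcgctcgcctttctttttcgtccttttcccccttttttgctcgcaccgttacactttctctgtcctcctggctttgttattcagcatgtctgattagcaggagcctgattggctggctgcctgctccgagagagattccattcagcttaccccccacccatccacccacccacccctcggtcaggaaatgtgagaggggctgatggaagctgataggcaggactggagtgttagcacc
ADAMTS12, chr5:33891991-33892240, minus strand: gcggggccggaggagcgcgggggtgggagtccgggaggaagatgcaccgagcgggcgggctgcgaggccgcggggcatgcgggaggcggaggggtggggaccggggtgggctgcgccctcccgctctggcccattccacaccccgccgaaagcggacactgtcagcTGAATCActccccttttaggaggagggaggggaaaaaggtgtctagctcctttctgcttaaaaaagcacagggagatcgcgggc
Both strands were searched from 250 bases before to 50 after the start. The patterns were TGANTCA for AP-1, where N is any base, the NF-kB site and TATAAA. The AP-1 match in ADAMTS12 was the only match in the 7 windows, and neither the NF-kB site nor TATAAA was found in them. The match in ADAMTS12, TGAATCA, has A at the open position and lies 84 to 78 bases before the start. The pattern TGANTCA reads alike on both strands. Whether AP-1 binds this sequence was not tested. Among 35116 promoter windows of the same length, 7.71% held a match to TGANTCA, 5.91% an NF-kB match and 11.5% TATAAA. GC content of the 250 upstream bases was 76.4% for ADAM19, 54.8% for ADAMTSL1 and 68.4% for ADAMTS12, against a median of 58% over all windows.

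Most other members of these families were scarcely present. Of 13 other ADAMTS proteases 4 were tested, and in EV_4OHT against EV 2 were higher and 2 lower. Over all tested genes 26.7% were called higher and 26.8% lower. For genes this low, entry to the test can depend on the group where a gene is high. ADAMTS3, a procollagen N-proteinase like ADAMTS2, averaged 1.78 ± 0.273 CPM in EV_4OHT and 0.860 ± 0.465 CPM in EV (log2 difference 1.03 ± 0.34, adjusted p = 0.014), with overlapping libraries. ADAMTS9 averaged 1.04 ± 0.456 CPM in EV_4OHT and 0.341 ± 0.142 CPM in EV (1.59 ± 0.51, adjusted p = 0.012). It had 7 to 25 counts in EV_4OHT libraries and at most 10 in any other, so it entered the test mainly through EV_4OHT, where it is high. The ADAMTS9 call is therefore no independent evidence of a rise. The count of higher genes was 1 without EV replicate 50, where ADAMTS3 did not pass (adjusted p = 0.052). It was also 1 without EV_4OHT replicate 55, where ADAMTS9 did not pass (adjusted p = 0.076). ADAMTS7 differed by -1.04 ± 0.33. ADAMTS15 had 4, 4, 3 and 5 counts in EV_4OHT libraries, against 22, 16, 22 and 22 in EV libraries (adjusted p = 0.00037). ADAMTS14, with the same 103 counts in all, was not tested. ADAMTS15 passed the low-count filter only through EV, where it is high, so this call is no independent evidence of a fall. It had 1, 0, 0 and 0 counts with shAHCY_2 and 1, 2, 0 and 1 with shAHCY_4, too few for a fold. Its call in shAHCY_2 against EV_4OHT (adjusted p = 0.018) was lost without shAHCY_2 replicate 58, 59 or 60.

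Of 6 other ADAMTS-like genes 5 were tested, and 2 fell in EV_4OHT against EV: THSD4, a fibrillin-associated protein, by 0.94 ± 0.11, and ADAMTSL4 by 0.83 ± 0.23. The median over the 5 was -0.58, beside -0.02 over all tested genes, of which 26.8% were called lower. Of 18 other ADAM genes 6 were tested, and 2 fell. ADAM10, a sheddase that shares substrates with ADAM17, averaged 183 ± 7.85 CPM in EV_4OHT and 287 ± 25.2 CPM in EV (log2 difference -0.65 ± 0.10, adjusted p = 7.3e-06). ADAM9 averaged 510 ± 21.2 CPM in EV_4OHT and 796 ± 71.9 CPM in EV (-0.64 ± 0.08, adjusted p = 3.8e-07). ADAM19 and ADAM12 rose while ADAM9 and ADAM10 fell in the same libraries, and none of these directions reversed under any alternative tried.

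Genes that act on the proteases moved in both directions. Of 7 inhibitors and clearance receptors, 2 rose and 4 fell in EV_4OHT against EV. Among all tested genes 26.7% were called higher and 26.8% lower. TIMP1 averaged 11700 ± 615 CPM in EV_4OHT and 1840 ± 159 CPM in EV, and rose by 2.67 ± 0.07. TIMP3, the inhibitor with the widest reach over ADAM and ADAMTS enzymes, fell by 0.73 ± 0.09 (adjusted p = 5.7e-07), TIMP2 by 0.95 ± 0.09, RECK, a membrane-bound inhibitor, by 1.26 ± 0.09, and LRP1, the receptor that clears several of these proteases, by 0.35 ± 0.10. The count of higher genes was 1 without EV replicate 50 or 51 or EV_4OHT replicate 54 or 55. FURIN, which removes the propeptide, rose by 0.83 ± 0.13 (29.5 ± 1.70 CPM in EV_4OHT and 16.6 ± 3.47 CPM in EV), and PCSK7 fell by 0.46 ± 0.10. Of the 4 tested genes for ADAM17 transport, 2 rose: RHBDF1, an inactive rhomboid that carries ADAM17 to the surface, by 0.87 ± 0.14, and FRMD8 by 0.46 ± 0.10. RHBDF2 differed by -0.17 ± 0.21 and did not pass.

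TIMP3 was measured at 63.9, 76.3, 65.2 and 63.9 CPM in shAHCY_2 libraries and at 73.7, 68.1, 67.0 and 82.5 CPM in shAHCY_4 libraries, against 49.6, 50.9, 60.6 and 57.3 CPM in EV_4OHT libraries. Every hairpin library lay above every EV_4OHT library. TIMP3 rose by 0.41 ± 0.09 with shAHCY_4 (adjusted p = 0.0035). The shAHCY_2 difference of 0.30 ± 0.09 passed narrowly (adjusted p = 0.049), and in 10 of the 25 alternatives other than a fold threshold. With shAHCY_4, TIMP1 fell by 0.27 ± 0.06 (adjusted p = 0.0045). TIMP3 and TIMP1 were the inhibitors called with shAHCY_4, 1 in each direction; 2 were higher without EV replicate 51, shAHCY_2 replicate 59 or shAHCY_4 replicate 62, and 2 were lower without shAHCY_4 replicate 61. In the lists of other ADAM genes, other ADAMTS-like genes, convertases and ADAM17 transport, edgeR called 0 of 18 tested genes in either hairpin comparison. DESeq2 and limma-voom called 0, and 4 genes with shAHCY_2 and 1 with shAHCY_4 had an unadjusted p under 0.05. The share of all genes at that unadjusted threshold is not given, so nothing is drawn from these counts. Of all tested genes, 3.91% were called higher and 3.07% lower with shAHCY_2, and 7.58% and 6.86% with shAHCY_4. At such shares a count of 0 among 18 says little about these lists.

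**Figure D4:**
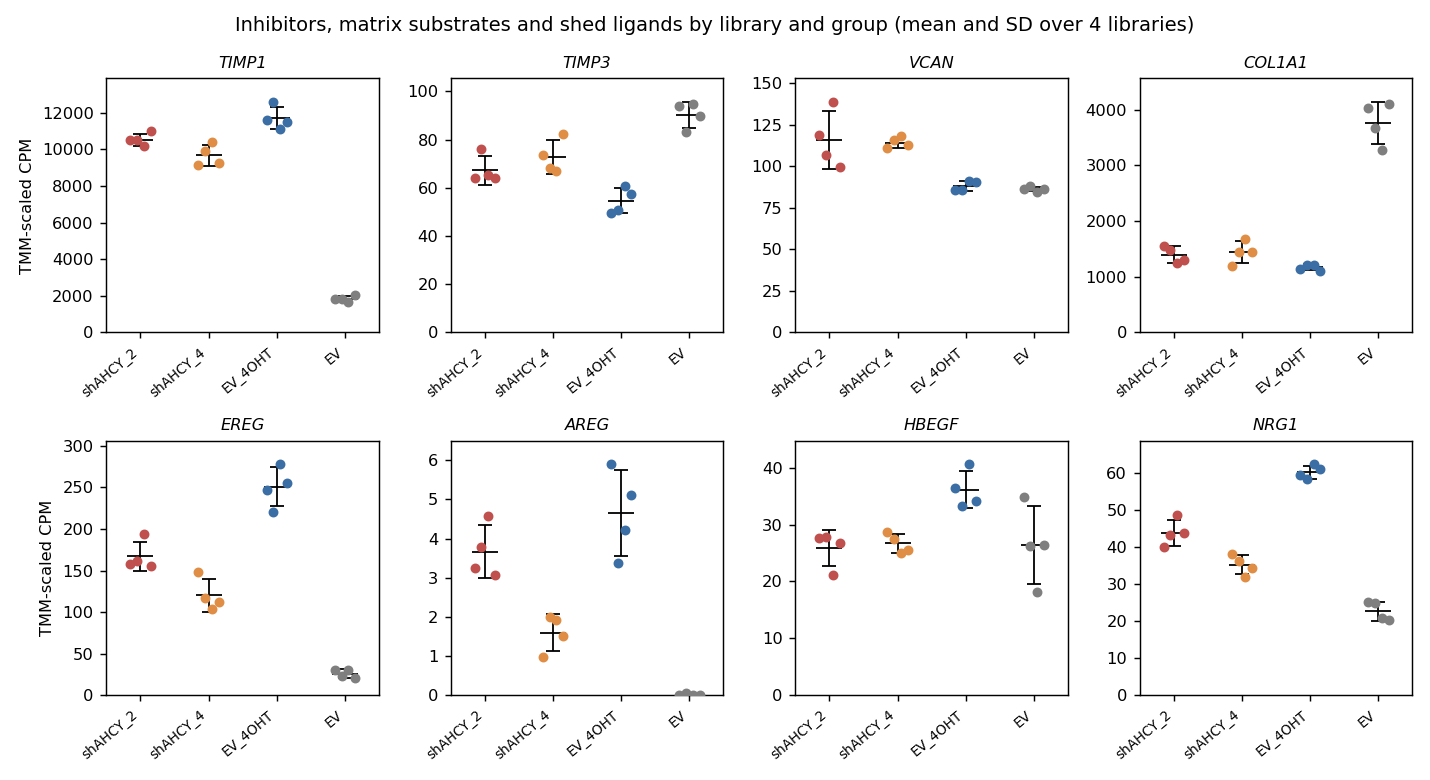
TMM-scaled CPM of 2 inhibitors, 2 matrix substrates and 4 shed ligands in each library (points), with the mean and SD of 4 libraries (bars), by group, each panel from 0. VCAN lies at 99.3 to 139 CPM in the 8 hairpin libraries and at 84.7 to 91.3 CPM in EV_4OHT and EV. EREG and NRG1 are lower in the hairpin groups than in EV_4OHT and higher than in EV.

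The matrix substrates of the ADAMTS proteases mostly fell in EV_4OHT relative to EV. Of 14 listed, 11 were tested, 8 fell and 1 rose in EV_4OHT against EV, with a median of -0.85. These counts stand beside 26.8% of all tested genes called lower and 26.7% called higher. DCN, a small proteoglycan, fell by 3.03 ± 0.07, COL1A2 by 1.81 ± 0.08, COL3A1 by 1.73 ± 0.09 and COL1A1 by 1.69 ± 0.09. VCAN, which encodes versican, the substrate shared by ADAMTS1, ADAMTS4 and ADAMTS5, differed by 0.03 ± 0.08 (adjusted p = 0.77). With the hairpins, VCAN was at 119, 107, 139 and 99.3 CPM in shAHCY_2 libraries and at 111, 116, 118 and 113 CPM in shAHCY_4 libraries, against 85.5, 85.9, 91.3 and 90.5 CPM in EV_4OHT libraries. No hairpin library overlapped EV_4OHT. VCAN rose by 0.39 ± 0.08 with shAHCY_2 (adjusted p = 0.0051) and by 0.37 ± 0.08 with shAHCY_4 (adjusted p = 0.0042), in the same libraries in which ADAMTS1 was lower. Without shAHCY_2 replicate 59, the library at 139 CPM, the VCAN difference with shAHCY_2 was 0.29 and still passed.

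VCAN was the 1 matrix substrate called with shAHCY_2, beside 3.91% of all tested genes called higher and 3.07% lower. Leaving out shAHCY_2 replicate 59 gave 2 higher genes, and leaving out shAHCY_2 replicate 57 gave 1 lower gene. With shAHCY_4, 4 were called higher and 1 lower, with a median of 0.19, beside 7.58% and 6.86% of all tested genes. LTBP1, which holds latent TGF-beta in the matrix, rose by 0.42 ± 0.08 (adjusted p = 0.00058), and BGN fell by 0.47 ± 0.12 (adjusted p = 0.0082). COL1A1 differed by 0.30 ± 0.09 (adjusted p = 0.028), which held in 20 of 25 alternatives. The count of higher genes was 2 without EV_4OHT replicate 53 or 56 or without shAHCY_4 replicate 62 or 63. The count of lower genes was 2 without EV_4OHT replicate 54 or shAHCY_2 replicate 59.

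Of 24 listed substrates of the ADAM proteases, 20 were tested, and 10 rose and 5 fell in EV_4OHT against EV, with a median of 0.24. Beside them, 26.7% of all tested genes were called higher and 26.8% lower. Among the EGF receptor ligands EREG, AREG and HBEGF rose. EREG was measured at 247, 221, 278 and 256 CPM in EV_4OHT libraries, against 30.1, 22.9, 30.8 and 20.2 CPM in EV libraries. It rose by 3.27 ± 0.13 (adjusted p = 3.7e-15). AREG had 71, 43, 63 and 68 counts in EV_4OHT libraries, against 0, 1, 0 and 0 counts in EV libraries (adjusted p = 1.9e-11), and no fold is given. HBEGF rose by 0.46 ± 0.14 (adjusted p = 0.0084) and NRG1, the ligand that ADAM19 processes in mouse, by 1.41 ± 0.09 (adjusted p = 1.7e-11). TGFA had 3 counts in all and was not tested. IGFBP3, which ADAM12 cuts, fell by 1.8 ± 0.10.

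EREG, NRG1 and HBEGF fell with both hairpins relative to EV_4OHT. EREG was at 158, 162, 194 and 156 CPM in shAHCY_2 libraries and at 148, 117, 104 and 112 CPM in shAHCY_4 libraries, all below EV_4OHT. EREG fell by 0.58 ± 0.12 with shAHCY_2 (adjusted p = 0.0037) and by 1.06 ± 0.12 with shAHCY_4 (adjusted p = 2.3e-06). NRG1 averaged 43.8 ± 3.5 CPM with shAHCY_2 and 35.2 ± 2.59 CPM with shAHCY_4, against 60.2 ± 1.75 CPM in EV_4OHT. It fell by 0.46 ± 0.09 with shAHCY_2 (adjusted p = 0.0024) and by 0.78 ± 0.09 with shAHCY_4 (adjusted p = 3e-06). HBEGF differed by -0.48 ± 0.14 with shAHCY_2 (adjusted p = 0.042) and by -0.44 ± 0.14 with shAHCY_4 (adjusted p = 0.039), calls that held in 14 and 16 of 25 alternatives. AREG fell by 1.5 ± 0.27 with shAHCY_4 (adjusted p = 0.00044), and its shAHCY_2 difference of -0.35 ± 0.24 did not pass.

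Over the whole list of ADAM substrates, 5 fell with shAHCY_2, with a median of -0.18, and 8 fell and 2 rose with shAHCY_4, with a median of -0.21. These calls were not confined to the ligands above. ICAM1 fell by 0.73 ± 0.12 with shAHCY_2 (adjusted p = 0.0004). With shAHCY_4 it averaged 47.7 ± 9.51 CPM, against 51.7 ± 4.4 CPM in EV_4OHT. SDC1 rose by 0.66 ± 0.10 with shAHCY_4 (adjusted p = 5.3e-05). The shares of all tested genes called lower were 3.07% with shAHCY_2 and 6.86% with shAHCY_4, and 7.58% were called higher with shAHCY_4. Over all tested genes the median was 0.01 in both comparisons. The count of lower genes with shAHCY_2 was 3 when any of 7 libraries was left out, namely EV_4OHT replicates 53, 55 and 56, shAHCY_2 replicates 59 and 60 and shAHCY_4 replicates 62 and 63. The count of higher genes with shAHCY_4 was 1 without EV_4OHT replicate 54 or 56 or shAHCY_4 replicate 62 or 63.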

How the data were processed

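RNA from 16 libraries of 1 human fibroblast line was isolated using Trizol plus a column kit, then turned into Smart-Seq2 libraries by Nextera XT, per the labels' protocols. Such libraries do not mark strand. The deposited values are whole-number counts per gene. The submitters' processing notes name CASAVA 1.8.2, TopHat2 2.0.11, featureCounts 1.18.0 and the hg19 (GRCh37) build. Not given in the sources used here are the release of the annotation, any strand option and how multi-mapping reads were handled.

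The counts as deposited were fitted with edgeR 4.0.16 in R 4.3.3 (TMM factors, filterByExpr by group, quasi-likelihood test) in 1 model of all 16 libraries with 6 comparisons. P-values were adjusted by Benjamini-Hochberg over 13526 tested genes, and the threshold was 0.05. The biological coefficient of variation was 11.9%. The 23062 identifiers without a symbol held 0.635% of counts and were kept. Standard errors were taken from the fold change and the F statistic. Each 95% interval is the fold change with 1.96 standard errors on either side, an approximation that can be narrower than the test implies. For ADAMTS5 in shAHCY_4 against EV it was -1.3 to -0.01, at an unadjusted p of 0.061 in the quasi-likelihood test. Log2 CPM for correlations used a prior count of 2.

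Lengths and overlapping genes came from GENCODE 29 and promoters from RefSeq. Both are on GRCh38, so they served for lengths, names and sequence and were joined to no coordinate of the counts. Alternatives comprised other scalings, filters and tools, including DESeq2 1.42.0 and limma 3.58.1, and leaving out each library. Scripts were tested on simulated data. The members and lists were chosen with earlier results of these data known. The text names AHCY, the 10 members, up to 4 called genes with the smallest adjusted p in each other list and comparison, a fixed set of inhibitors, partners and substrates, and the 3 genes most like each member. IGFBP5, SDC1 and ICAM1 fall under the same rule.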

Additional observations from a re-analysis of the deposited data

Results flagged for a closer look

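In shAHCY_4 libraries AHCY stood at 18 CPM in replicate 63 and at 13.4, 13.5 and 14 CPM in the other 3. The gap between replicate 63 and its nearest neighbour was 0.862 of the range, above Dixon's 95% value for 4 samples. Such a gap was looked for in 44 groups of values, and chance gives about 1 in 20.

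Between the hairpins, 4 substrates of the ADAM proteases, of 20 tested, differed by edgeR's quasi-likelihood test, 2 in each direction. Over all tested genes 0.702% were called higher in shAHCY_2 and 0.54% lower. AREG was higher in shAHCY_2 than in shAHCY_4, at 3.67 ± 0.673 CPM and 1.6 ± 0.469 CPM, a log2 difference of 1.15 (adjusted p = 0.037). That call held in 15 of 25 alternatives, those other than the fold threshold. IGFBP5 was higher in shAHCY_2 as well, at 893 ± 217 CPM against 536 ± 36.5 CPM in shAHCY_4, a log2 difference of 0.74 (adjusted p = 0.0017). Its highest shAHCY_2 library was replicate 59 at 1210 CPM, and without it the difference was 0.56 and still passed. ICAM1 was lower in shAHCY_2, at 31.2 ± 1.69 CPM against 47.7 ± 9.51 CPM in shAHCY_4, a log2 difference of -0.62 (adjusted p = 0.01). Without shAHCY_4 replicate 63 it was -0.50 and did not pass (adjusted p = 0.061). SDC1 was lower in shAHCY_2, at 72.4 ± 9.35 CPM against 101 ± 7.43 CPM in shAHCY_4, a log2 difference of -0.48 (adjusted p = 0.014). Without shAHCY_4 replicate 62 it was -0.42 and did not pass (adjusted p = 0.081).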

How the results depend on the processing

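Over 60 fold changes of the 10 genes and 26 alternatives (1560 values), 0 called values changed sign. The sign of uncalled values near 0 turned in 32 cases, among them ADAMTS5 in EV_4OHT against EV (-0.04, and 0.07 with the GC trend removed) and ADAM12 in shAHCY_2 against EV (0.03, and -0.05 with library totals alone). Of the 60 fold changes, 43 kept their direction and call in each of the 25 alternatives other than the fold threshold. Requiring a log2 change beyond 1 left 2 members higher in EV_4OHT against EV, beside 975 of 13526 tested genes. ADAMTS2 (-1.08) and ADAMTSL1 (-1.92) stayed lower in that comparison, beside 1430 of all tested genes. The same threshold left 0 members lower in shAHCY_2 against EV_4OHT and 0 in shAHCY_4 against EV_4OHT. Of all tested genes it left 42 and 139 lower, so a count of 0 among 10 says little. With no low-count filter 1 member, ADAMTS1, was higher in shAHCY_2 against shAHCY_4. Over the alternatives the ADAMTS1 log2 difference from EV_4OHT lay between -0.56 and -0.48 for shAHCY_2 and between -0.89 and -0.75 for shAHCY_4, and that of ADAM12 between -0.74 and -0.59 for shAHCY_2 and between -0.89 and -0.73 for shAHCY_4. Library totals alone moved the median of all genes in EV_4OHT against EV to -0.13 and the share of calls that were higher to 38.2%, against 49.9% with TMM. That share was 69.8% against 56% for shAHCY_2 against EV_4OHT, and 67.4% against 52.5% for shAHCY_4 against EV_4OHT. In shAHCY_2 against shAHCY_4 it was 38.9% with the GC trend removed, against 56.5%. Over all genes, the fold threshold left 975 higher and 1430 lower in EV_4OHT against EV, in place of 3613 and 3626. It left 152 and 42 with shAHCY_2 against EV_4OHT, in place of 529 and 415, and 189 and 139 with shAHCY_4, in place of 1025 and 928. Against EV it left 847 and 1169 with shAHCY_2, in place of 3314 and 3188, and 814 and 1255 with shAHCY_4, in place of 3439 and 3486. With only the groups compared, shAHCY_4 against EV_4OHT gave 1577 higher and 1559 lower. Removing the GC trend gave 704 lower with shAHCY_2 and 1540 higher with shAHCY_4. Without EV_4OHT replicate 55, 349 were higher with shAHCY_2, without EV_4OHT replicate 54, 273 were lower, and without EV_4OHT replicate 56, 679 were higher with shAHCY_4. In shAHCY_2 against shAHCY_4, 95 higher and 73 lower became 430 and 123 with no low-count filter, 239 and 376 with the GC trend removed, 240 and 247 by DESeq2, 47 and 31 with only these groups, 10 and 7 with the fold threshold, and 38 to 163 and 28 to 165 when 1 library was left out. The cause was not tested. No paired analysis was possible because each library has a replicate number of its own. Depth limits ADAMTS4, ADAMTS5 and the other genes with under 100 counts in most libraries.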
